A study of Mus musculus with 24 samples.

Results

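Heterozygous Setd2 mouse embryos (HE) were compared with wild-type embryos (WT) at embryonic day 9.5. The comparison took 8 of the 24 libraries of the series, all from whole embryos: 2 HE and 2 WT libraries of a Setd2 null line, and 2 HE and 2 WT libraries of a Setd2 catalytic dead line, named CD in the labels. Homozygous embryos (HO), 2 libraries from each line, were set beside them, and the same comparison was made in yolk sacs. All animals are labelled C57BL/6, and WT, HE and HO within a line differ, per the labels, in the number of mutant Setd2 alleles. The labels do not say how either allele was made, how old the dams were or whether embryos were pooled or came from separate litters, so p-values measure the spread between these libraries, which may be technical. The question was whether carrying 1 active copy of Setd2 changes the transcripts that change in homozygotes, and in the same direction.

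SETD2 is the enzyme that adds the third methyl group to lysine 36 of histone H3, a mark laid down along gene bodies while RNA polymerase II transcribes them. The mark is read by factors of splicing, DNA methylation and DNA repair, and it restrains initiation from within genes. A null allele removes the protein, whereas a catalytic dead allele is meant to leave the protein in place without its enzyme activity.

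Total counts were 24574487 to 27674831 per WT or HE embryo library. Levels below are CPM, the counts of a gene scaled by its library's adjusted total, and changes are log2 differences fitted with line as a covariate. One library stood apart: in the second CD WT library the summed level of 48 visceral endoderm markers, genes of the extraembryonic layer around the embryo, was 2376 CPM, against 921 to 1110 CPM in the other 3 WT libraries and 895 to 1010 CPM in the 4 HE libraries. It was also the highest of WT in the sum of hypoxia and glycolysis genes, at 17040 CPM against 12890 to 13910 CPM. Its somite and axis genes summed to 1419 CPM against 976 to 1145 CPM, and its embryonic globin Hbb-y was at 162 CPM against 614 to 948 CPM. Sex transcripts also differed between groups. Xist, the RNA that coats the inactive X chromosome, was at 2118 and 2148 CPM in the null WT libraries and at 1.12 and 0.994 CPM in the null HE libraries, so that genotype and sex cannot be told apart within the null line. In the CD line both WT libraries had Xist at or below 1.33 CPM, while the HE libraries had 2024 and 1.80 CPM. The HO libraries had 3.20 and 1320 CPM in the null line and 1508 and 1266 CPM in the CD line. Between WT and HO of the CD line, genotype and sex thus cannot be told apart either. In bulk samples, fewer cells of a type and less RNA per cell cannot be told apart.

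Setd2 itself checked the labels. In the null line it was at 232 and 229 CPM in WT, 169 and 157 CPM in HE and 93.3 and 104 CPM in HO. The 3 genotypes did not overlap, and the HE mean was 70.6% of the WT mean, with the HO mean at 42.8%. In the CD line Setd2 was at 224 and 255 CPM in WT, 222 and 231 CPM in HE and 218 and 213 CPM in HO, so that WT and HE overlapped and the HE mean was 94.8% of WT. With both lines pooled, the HE change was −0.29 ± 0.08 (SE, log2; n = 4 HE and 4 WT libraries), with an adjusted p of 0.809 by edgeR's quasi-likelihood test. Of 36 tested factors that write, read or remove H3K36 methylation, 0 were called in HE, 2 were lower at an unadjusted p below 0.05 (background 6.08% in either direction), and the median HE change was −0.02.

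**Figure D1:**
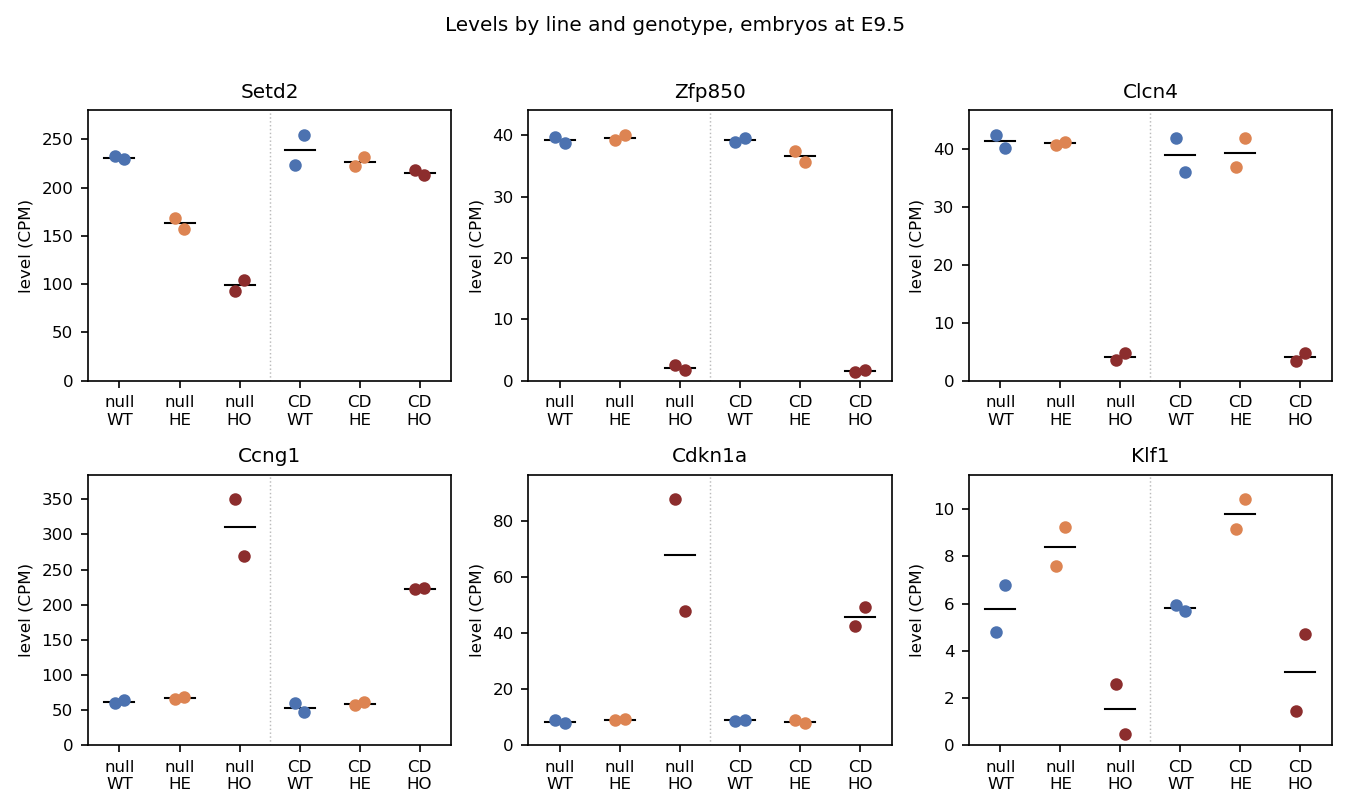
Levels in CPM (vertical axis, from 0) of 6 genes in the 12 embryo libraries, by line and genotype; each point is a library and each bar the mean of 2. Setd2 steps down from WT to HE to HO without overlap in the null line, whereas the HE libraries of Zfp850, Clcn4, Ccng1 and Cdkn1a overlap the 4 WT libraries, and Klf1 in HE lies above all 4 WT libraries.

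Pooled over both lines, 1 of 17937 genes tested (0.00558%) was called in HE against WT at an adjusted p below 0.05. That gene was Tma7-ps, a processed copy of Tma7, and it rose. At an unadjusted p below 0.05 there were 1091 genes (6.08%), 514 higher and 577 lower. The median size of the HE change over all genes was 0.07 and its median standard error 0.09. DESeq2 called 10 genes, and leaving out the second CD WT library also gave 10, leaving out the first CD HE library 4, the first CD WT library 3 and the first null WT library 2. With a term for Xist in the fit the count was 2. Without a filter on low counts it was 411, of which 390 were genes that passed the filter.

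The homozygous list was the genes called in HO against WT in both lines in the same direction: 951 higher (4.95% of 19215 genes tested over 12 libraries) and 1349 lower (7.02%). With the Xist term it held 788 genes instead of 2300. Of the 894 higher genes tested in HE, 47 were higher and 29 lower in HE at an unadjusted p below 0.05. Of the 1346 lower genes, 100 were lower and 24 higher (background 3.22% lower and 2.87% higher). The count asked for, genes called in HE and in this list in the same direction, was 1, again Tma7-ps. The HE and HO comparisons share the WT libraries, so a deviation of a WT library enters both in the same direction. The count was 7 by DESeq2, 7 without the second CD WT library, 2 with the Xist term and 45 without a filter on low counts.

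Tma7 encodes a small protein associated with the translation machinery. It lies at chr9:109074568-109082587 (mm10), 1.45 Mb from Setd2 at chr9:110532597-110618633, while Tma7-ps is a processed pseudogene of 1 exon at chr1:171711088-171711282. In the null line Tma7-ps was at 11.7 and 11.6 CPM in WT, 21.4 and 20.7 CPM in HE and 28.4 and 25.7 CPM in HO. In the CD line it was at 10.6 and 11.8 CPM in WT, 20.1 and 20.7 CPM in HE and 24.8 and 27.8 CPM in HO. All 4 HE libraries lay above all 4 WT libraries, as they did in 1.62% of all genes, and below all 4 HO libraries. The HE change was 0.86 ± 0.06 (SE; 95% interval 0.72 to 0.997; adjusted p = 0.000559), at 0.85 in the null and 0.87 in the CD line. Over the other scalings, filters, tools and left-out libraries tried, its adjusted p ranged from 1.3e-19 to 0.0126.

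The copies differ from the parent at few bases, and the sequences are shown because reads of 1 can match another. The runs below are the 195 bases of Tma7's coding sequence and the matching stretch of the copies, from the GENCODE M21 transcripts, with capitals at bases that differ from Tma7.
Tma7: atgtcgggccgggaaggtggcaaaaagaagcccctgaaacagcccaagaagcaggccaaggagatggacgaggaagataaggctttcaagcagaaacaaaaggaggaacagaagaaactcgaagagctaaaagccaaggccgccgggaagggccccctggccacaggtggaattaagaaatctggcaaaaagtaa
Tma7-ps: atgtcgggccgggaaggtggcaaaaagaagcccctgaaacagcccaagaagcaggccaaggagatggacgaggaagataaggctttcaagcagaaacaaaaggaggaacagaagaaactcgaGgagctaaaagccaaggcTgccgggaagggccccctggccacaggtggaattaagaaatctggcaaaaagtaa
Gm15610: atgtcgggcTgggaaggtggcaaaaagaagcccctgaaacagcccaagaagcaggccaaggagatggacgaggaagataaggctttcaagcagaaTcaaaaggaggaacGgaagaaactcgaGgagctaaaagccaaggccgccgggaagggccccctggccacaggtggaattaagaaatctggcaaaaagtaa
Counted from the first base shown, Tma7-ps differs from Tma7 by A123G and C141T, and Gm15610 by C10T, A96T, A110G and A123G. All 8 copies found at 90% identity or more over 90% of the length, Tma7 itself left out, carry A123G. Gm15610 (chr5:8971948-8972142) was at 0.309 and 0.456 CPM in null WT, 1.35 and 0.954 CPM in null HE, 0.361 and 0.333 CPM in CD WT, and 1.31 and 0.791 CPM in CD HE. Every HE library was again above every WT library, and the HE change of 1.58 ± 0.28 had an adjusted p of 0.417.

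The parent moved the other way. Tma7 was at 108 and 111 CPM in null WT, 106 and 106 CPM in null HE, 119 and 114 CPM in CD WT, and 101 and 97.9 CPM in CD HE. All HE libraries were below all WT libraries, with a change of −0.14 ± 0.04 and an adjusted p of 0.809. When Tma7 and its copies were summed, an alternative chosen after seeing the data, the HE change was 0.002 (95% interval −0.08 to 0.08). The copies of Rpl29 were summed in the same fit, in which 0 genes were called in HE. Whether counts moved between parent and copies was not tested, and the sources name no rule for counting reads that match several places.

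**Figure D2:**
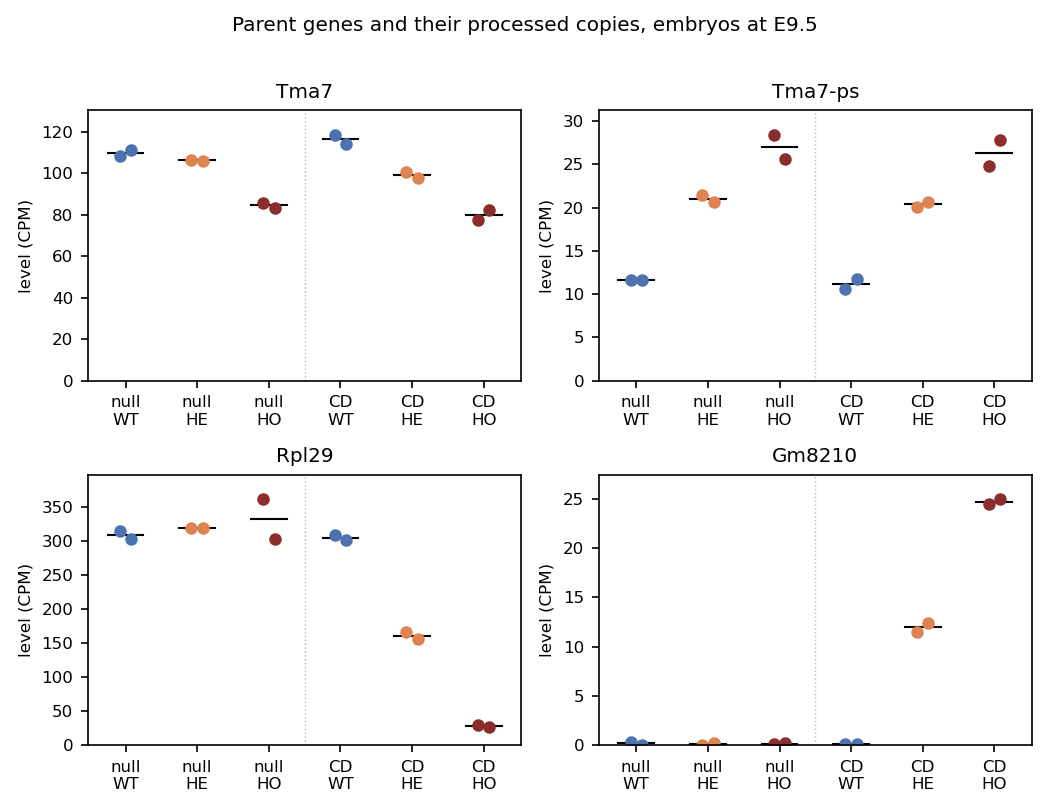
Levels in CPM (vertical axis, from 0) of Tma7 and Rpl29 with a processed copy of each in the 12 embryo libraries; points are libraries and bars means of 2. Tma7-ps in HE lies between WT and HO in both lines, while Rpl29 and Gm8210 change in the CD line only.

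Over the homozygous list the HE libraries lay close to WT. Each library was placed by its median, over the list, of log2(CPM + 0.5) minus the mean of the WT libraries of its line. Over the 951 genes higher in HO, the null HE libraries were at 0.05 and 0.02 and the CD HE libraries at −0.02 and −0.03, beside 0.68 and 0.67 in null HO and 0.57 and 0.55 in CD HO. The WT libraries, whose mean is 0 in their line, were at 0.004 and −0.004 (null) and −0.04 and 0.04 (CD). The HE libraries were thus within the spread of WT in the CD line and outside it, on the HO side, in the null line. Over the 1349 genes lower in HO, the HE libraries were at −0.03 and −0.03 (null) and 0.007 and 0.008 (CD), and the HO libraries at −0.52, −0.54, −0.42 and −0.44. There the WT libraries were at −0.0003 and 0.0003 (null) and 0.03 and −0.03 (CD). Null HE again lay outside WT on the HO side, and CD HE within WT. Positions were centred on the WT libraries of each line, and both lists were picked by HO against the same libraries. Whether HE falls inside or outside WT is therefore partly set by that choice. The fitted median HE change was 0.0044 over the 894 higher genes tested in the 8-library fit and −0.0075 over the 1346 lower ones, against 0.0006 over all genes. Listed genes changed at least 2-fold in HO of both lines lay further from WT, with a median HE change of 0.094 over the 191 higher and −0.051 over the 223 lower ones tested. For these the null HE libraries were at 0.08 and 0.07 (higher) and −0.11 and −0.12 (lower), beside 0.005 and −0.005 in the null WT libraries of both sets. The CD HE libraries were within CD WT. They were at 0.05 and 0.03 (higher), beside −0.06 and 0.06 in CD WT. Over the lower genes they were at −0.01 and 0.03, beside 0.11 and −0.11 in CD WT.

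**Figure D3:**
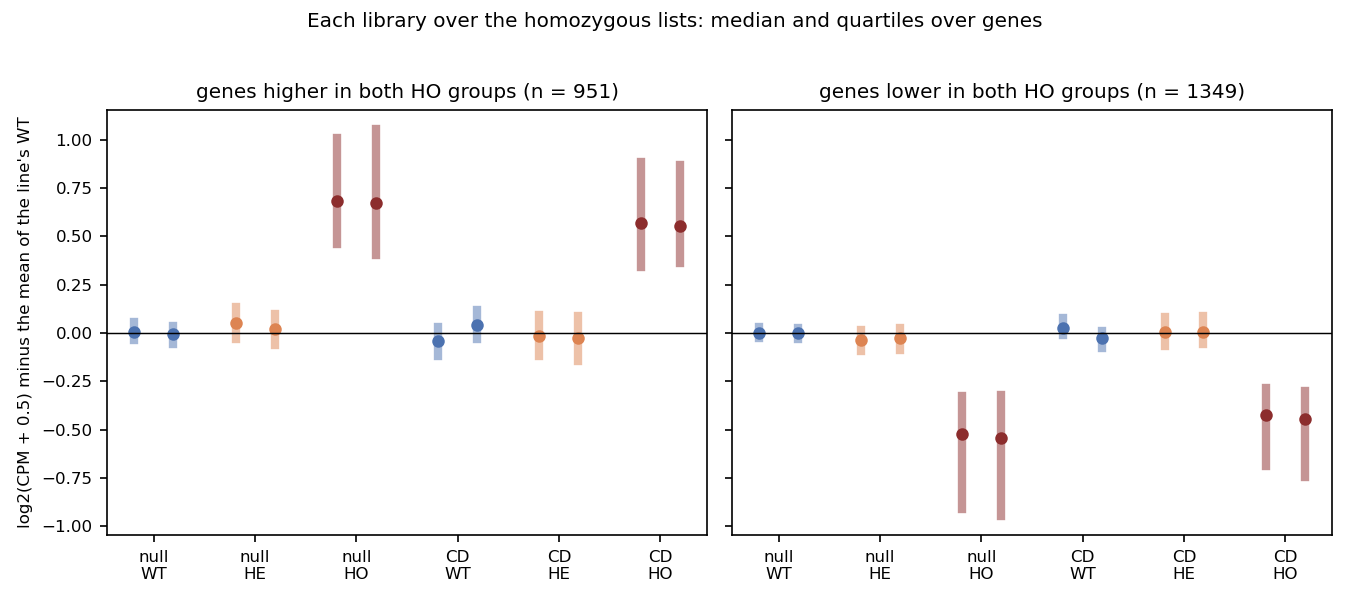
Median (points) and quartiles over genes (bars) of log2(CPM + 0.5) minus the mean of the line's WT libraries, for each of the 12 embryo libraries, over the 951 genes higher and the 1349 genes lower in both HO groups. The HE medians lie between −0.03 and 0.05 in both panels, while the HO medians lie beyond 0.55 and −0.42.

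HE was then tested against the midpoint of the WT and HO log2 levels over all 12 libraries. A level proportional to the number of active copies would lie at the midpoint of the linear levels instead, which for genes that fall far is much closer to WT. Of the 2300 listed genes, 1650 (71.7%) differed from the midpoint on the WT side: 643 of 951 higher and 1007 of 1349 lower genes. The WT and HO libraries that set the midpoint also chose the listed genes, so these counts are not independent of that choice. On the HO side there were 3: Tma7-ps, Gm6916 (another copy of Tma7) and AC149090.1. Over all 19215 genes, 20.0% differed from the midpoint in either direction, a share that includes genes with no gap between WT and HO. Of the 647 listed genes that did not differ from it, 624 had their estimate on the WT side. The WT-side count ranged from 829 of a list of 1076 without the second CD HO library to 2077 of a list of 2673 without the second null HO library, and was 644 of a list of 788 with the Xist term. On the linear scale, a description added after seeing the data, the HE mean lay nearer to WT than to HO in both lines in 928 of the 951 higher genes (97.6%) and 1278 of the 1349 lower genes (94.7%). By the median over genes, HE had gone 3.89% (null) and −3.10% (CD) of the way from WT to HO for the higher genes, and 7.41% and −1.34% for the lower ones. HE differed from HO in 8232 of 19215 genes (42.8%), 4087 higher and 4145 lower in HE.

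Zfp850, Clcn4, Fap and Meox2, among the genes that fell furthest in homozygotes, overlapped WT in HE, whereas others such as Zfp873 and Gm46339 did not. Zfp850, a zinc finger protein gene, was at 39.7 and 38.7 CPM in null WT, 39.1 and 40.05 CPM in null HE, 38.9 and 39.6 CPM in CD WT and 37.4 and 35.7 CPM in CD HE, while the 4 HO libraries were at 1.38 to 2.58 CPM. The HE libraries overlapped WT in the null line and lay just below WT in the CD line; the HE change was −0.04 ± 0.05 (95% interval −0.15 to 0.06). Clcn4, a chloride-proton exchanger gene, was at 36.1 to 42.5 CPM in WT, 36.9 to 41.9 CPM in HE and 3.37 to 4.80 CPM in HO, with an HE change of 0.004 ± 0.06. Fap, a membrane protease gene, was at 1.96 to 6.76 CPM in WT, 3.94 to 6.92 CPM in HE and 0.115 to 0.270 CPM in HO. The transcription factor gene Meox2 was at 3.75 to 10.5, 7.88 to 11.7 and 0.210 to 1.08 CPM in WT, HE and HO. The lowest WT value of both Fap and Meox2 was that of the second CD WT library.

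Of the zinc finger genes named Zfp, many of which encode DNA-binding repressors, 100 of 372 tested were lower and 18 higher in both HO groups (7.02% and 4.95% of all genes). On the WT side of the log2 midpoint were 84 of these lower genes and 15 of the higher ones, beside 74.6% and 67.6% over the whole homozygous list. Of 361 tested Zfp genes 0 were called in HE, 28 were lower and 6 higher at an unadjusted p below 0.05 (background 3.22% lower and 2.87% higher), and the median HE change was −0.03. Zfp873, one of the genes that fell furthest in HO, was at 11.7 and 13.1 CPM in null WT, 9.63 and 10.6 CPM in null HE, 12.2 and 11.3 CPM in CD WT and 10.5 and 10.3 CPM in CD HE. Its HE libraries did not overlap WT, with a change of −0.24 ± 0.08 and an adjusted p of 0.809, while HO was at 0.629 to 1.30 CPM. Zik1 was at 49.7 to 66.3 CPM in WT, 51.8 to 57.0 CPM in HE and 10.3 to 13.1 CPM in HO, so that WT and HE overlapped.

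Targets of p53, the tumour suppressor that halts division or triggers death after damage, were higher in both HO groups in 26 of 48 tested genes (4.95% of all genes). In HE, 0 of 45 tested targets were called, 0 reached an unadjusted p below 0.05, the median change was 0.01, and 22 of the 26 lay on the WT side of the log2 midpoint (67.6% over all listed higher genes). Cdkn1a, the inhibitor of cyclin-dependent kinases that p53 induces, was at 7.79 to 8.88 CPM in WT, 7.94 to 9.19 CPM in HE and 42.4 to 87.7 CPM in HO. Ccng1 was at 46.7 to 64.0 CPM in WT, 56.4 to 69.0 CPM in HE and 222 to 350 CPM in HO. WT and HE overlapped for both genes, with HE changes of 0.03 ± 0.09 for Cdkn1a and 0.13 ± 0.07 for Ccng1.

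The ATF4 stress response, which raises amino acid supply when translation is impaired, had 22 of 44 genes higher in both HO groups (4.95% of all genes), 19 of them on the WT side of the log2 midpoint in HE (67.6% over all listed higher genes). The median HE change was 0.007, with 3 higher and 1 lower at an unadjusted p below 0.05 (background 2.87% higher and 3.22% lower). Atf4 itself was at 170 and 172 CPM in null WT, 193 and 188 CPM in null HE, 169 and 147 CPM in CD WT and 170 and 178 CPM in CD HE. The HE libraries were above WT within each line but overlapped WT across the lines; the HE change was 0.15 ± 0.04 with an adjusted p of 0.809, beside HO changes of 0.31 and 0.35. Chac1, a glutathione-degrading enzyme gene, was at 0.281 to 0.541 CPM in WT, 0.541 to 0.575 CPM in HE and 5.92 to 12.03 CPM in HO. Of 47 hypoxia and glycolysis genes 18 were higher in both HO groups (4.95% of all genes). All 18 were on the WT side of the log2 midpoint, against the same 67.6%. The median HE change of the 47 was −0.09, and −0.02 without the second CD WT library. Not every list had such a large share on the WT side. Of genes higher in HO, 2 of 13 ribosomal protein and 4 of 8 imprinted genes were there (67.6% over the whole list). Of genes lower in HO, 3 of 8 clustered protocadherin and 1 of 4 imprinted genes were there (74.6%). The 22 tested protocadherin genes had a median HE change of −0.21.

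Most cell type lists lay near WT. The median HE change was 0.10 over 54 neural genes, −0.07 over 35 somite and axis genes, 0.05 over 46 endothelial genes, −0.03 over 40 cardiac genes and 0.04 over 15 mitochondrially encoded transcripts, with 0 called in each. Without the second CD WT library these medians were, in the same order, 0.05, −0.04, −0.002, −0.02 and 0.07. Primitive erythroid genes, which make the first red cells, had 24 of 43 members higher and 0 lower at an unadjusted p below 0.05, with 0 called. The background was 2.87% higher and 3.22% lower. The erythroid median HE change was 0.28 (null 0.17, CD 0.50). Without the second CD WT library it was 0.23, with 21 of 44 higher (522 of all 18432 genes). The summed level of the list was 2607 to 4888 CPM in WT, 4347 to 5578 CPM in HE and 1128 to 3025 CPM in HO, so HE overlapped WT and lay on the far side of WT from HO. Klf1, the master activator of erythroid genes, was at 4.79, 6.77, 5.94 and 5.66 CPM in WT (null, then CD) and 7.58, 9.23, 9.16 and 10.4 CPM in HE. Its HE libraries did not overlap WT, with a change of 0.65 ± 0.13 and an adjusted p of 0.485. The embryonic globin Hbb-bh1 was at 471 to 956 CPM in WT and 866 to 1170 CPM in HE, which overlap.

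The visceral endoderm list had 18 of 40 genes lower and 1 higher at an unadjusted p below 0.05 (background 3.22% lower and 2.87% higher), with 0 called. Its median change was −0.49, at −0.05 in the null line against −1.17 in the CD line. Without the second CD WT library the median was −0.12, with 13 of 41 lower (613 of all 18432 genes). With the Xist term it was −0.73, with 29 of 44 lower (812 of all 18526 genes). Apoa1, an apolipoprotein, shows the pattern: 1.004, 1.14, 4.90 and 46.4 CPM in WT (the last the second CD WT library) and 0.967, 0.358, 2.51 and 1.98 CPM in HE.

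**Figure D4:**
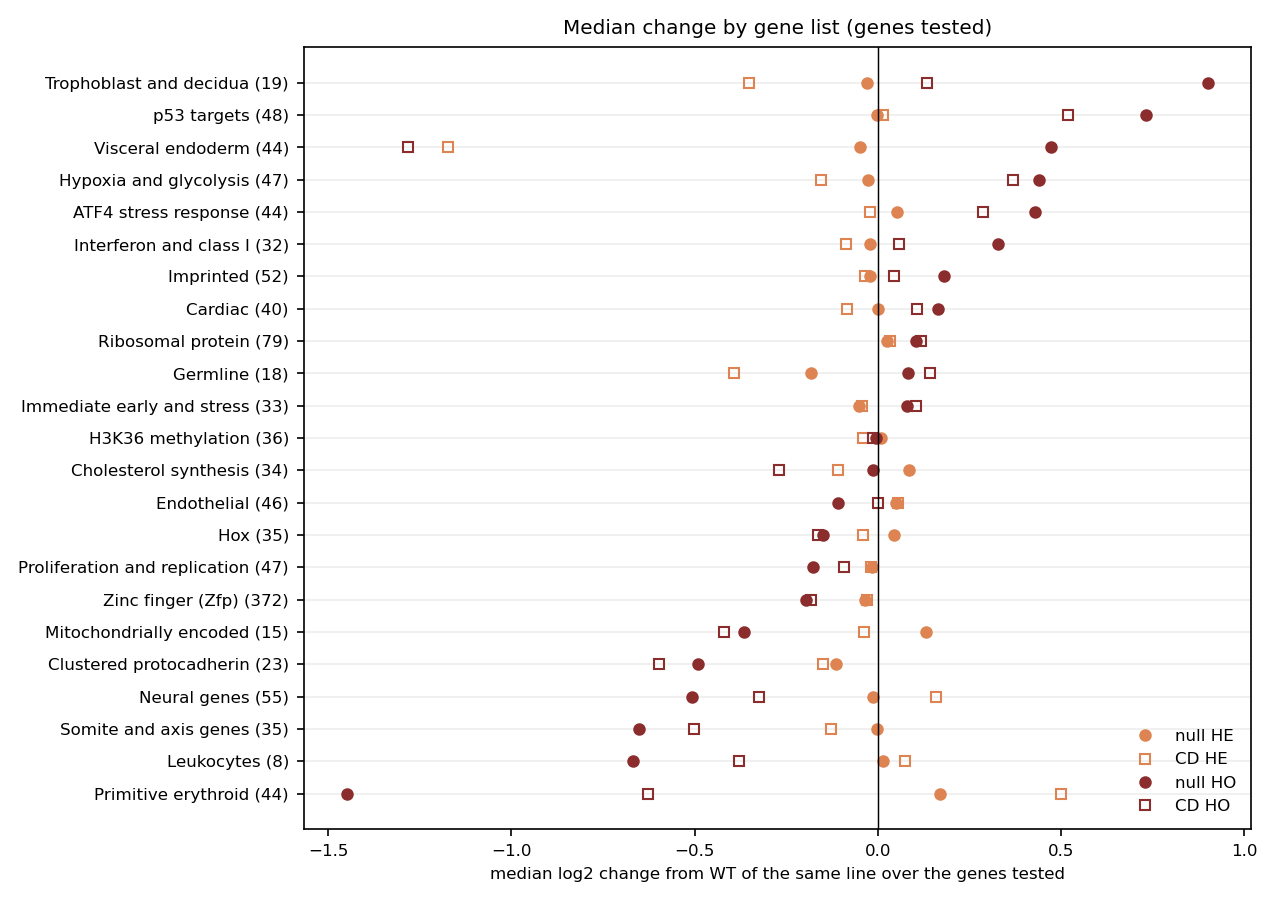
Median log2 change from WT of the same line (horizontal axis) over the genes tested (number in brackets) of 23 lists, in HE and HO of each line. HE medians lie between −0.39 and 0.17 except for visceral endoderm in CD (−1.17) and primitive erythroid in CD (0.50), and p53 targets lie near 0 in HE but above 0.5 in HO.

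Some genes of a stretch of chromosome 12 lay between WT and HO in HE. Between positions 18514510 and 23968845 (mm10), a window chosen after its values were seen, 18 of 38 tested genes were lower in both HO groups and 0 higher (7.02% and 4.95% of all genes); most are long non-coding RNAs and pseudogenes. In HE, 16 of the 17 tested in the 8-library fit were below WT, 11 at an unadjusted p below 0.05 (background 3.22% lower), with a median change of −0.74 (null −0.79, CD −0.58) and 0 called. These genes were picked by their fall in HO against the same WT libraries. The other 20 genes of the window had a median HE change of −0.025. For 10 of the 18, all 4 HE libraries were below all 4 WT libraries (1.55% of all genes). By library, the median position over the 18 genes on the log2(CPM + 0.5) scale was −0.68 and −0.47 in null HE and −0.25 and −0.49 in CD HE, beside −1.77 and −1.83 in null HO and −1.76 and −1.46 in CD HO. The HE libraries thus lay between WT and HO. On the linear scale the median HE level was 57.8% (null) and 67.0% (CD) of WT, beside 8.91% and 10.2% in HO, and had gone 47.9% and 34.8% of the way from WT to HO. The HE mean was nearer to WT than to HO in both lines in 9 of the 18 genes. Against the log2 midpoint, 10 of the 18 were on the WT side and 0 on the HO side. Without the second CD WT library, 14 of the 17 were lower at an unadjusted p below 0.05 (613 of all 18432 genes). In that fit 3 were called and the median was −0.87.

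Within the group, Gm46339 (chr12:19301653-19305191) was at 6.10 and 5.59 CPM in null WT, 1.47 and 2.11 CPM in null HE, 6.58 and 4.37 CPM in CD WT, 3.30 and 1.51 CPM in CD HE and at most 0.424 CPM in HO. Its HE libraries did not overlap WT, with a change of −1.44 ± 0.24 and an adjusted p of 0.295. The long non-coding RNA 2410018L13Rik (chr12:22953997-23010284) was at 8.07 and 7.79 CPM in null WT, 5.26 and 5.41 CPM in null HE, 7.75 and 8.70 CPM in CD WT, 6.65 and 5.82 CPM in CD HE and 0.578 to 0.995 CPM in HO. The change was −0.48 ± 0.09, with an adjusted p of 0.485. Zfp125 was the 1 member not below WT in the pooled fit, at 27.9 to 29.3 CPM in WT and 27.8 to 30.1 CPM in HE. Whether members share reads with near-identical copies was not tested.

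**Figure D5:**
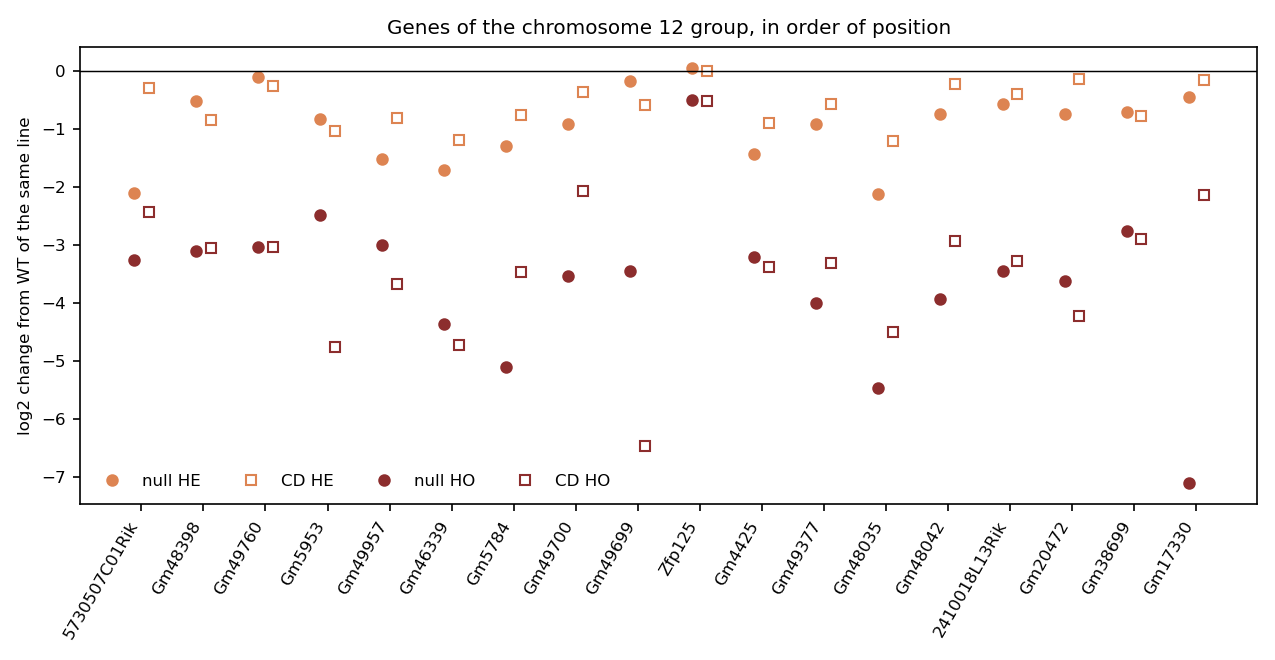
Fitted log2 change from WT of the same line (vertical axis) for the 18 chromosome 12 genes lower in both HO groups, in order of position, with HE in orange and HO in dark red. Nearly all HE points lie between 0 and the HO points of the same gene. Gm17330 in null HO and Gm49699 in CD HO had 0 counts in both libraries, so those 2 points give no measured size.

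Other genes among the 10 of smallest p in HE followed the homozygotes or not. Gm26788, a non-coding transcript, was at 0.734 and 0.380 CPM in null WT, 1.93 and 1.51 CPM in null HE, 5.13 and 6.96 CPM in null HO, 0.522 and 0.458 CPM in CD WT, 1.87 and 1.80 CPM in CD HE, and 4.75 and 4.16 CPM in CD HO. Its HE change was 1.76 ± 0.23 (adjusted p = 0.0694), and its distance from the log2 midpoint was 0.11 ± 0.17. AC149090.1 was at 15.6 and 14.7 CPM in null WT, 4.33 and 3.74 CPM in null HE and 5.86 and 6.08 CPM in null HO, and at 13.4 and 12.7, 7.96 and 3.88, and 6.62 and 6.43 CPM in CD WT, HE and HO. HE did not overlap WT, and 3 of the 4 HE libraries lay below all HO libraries (change −1.52 ± 0.20; adjusted p = 0.0694). Tmem223, a mitochondrial membrane protein gene, went another way: 13.1 to 16.5 CPM in WT, 20.7 to 23.1 CPM in HE and 9.10 to 13.7 CPM in HO. Its change was 0.59 ± 0.08 (adjusted p = 0.0694). Rps4l, a ribosomal protein copy, was at 52.6 to 60.4 CPM in WT, 61.8 to 72.1 CPM in HE and 122 to 152 CPM in HO, a change of 0.29 ± 0.05 (adjusted p = 0.417).

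The alleles were then taken apart in the 12-library fit. In the null line 2 of 19215 genes were called in HE (0.0104%), Tma7-ps and AC149090.1. That count was 0 with the Xist term, and 0 without the first null WT library, either null HE library or either CD HO library. In the CD line 3 were called (0.0156%): Rpl29 fell, and Gm8210 and Tma7-ps rose. At an unadjusted p below 0.05 there were 464 genes in null HE (2.41%) and 1693 in CD HE (8.81%). The CD count depended on the WT libraries, being 849 called without the first CD WT library and 2 without the second. DESeq2 called 8 genes in null HE and 52 in CD HE. In a fit of the 8 WT and HE libraries with a coefficient for each group, the HE change differed between the lines in 1 of 18526 genes (0.00540%), Rpl29, a count that became 1725 without the first CD WT library, 11 by DESeq2 and 0 with the Xist term.

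Rpl29, a protein of the large ribosomal subunit, lies at chr9:106429454-106431568, 4.1 Mb from Setd2. In the CD line it was at 309 and 301 CPM in WT, 166 and 156 CPM in HE and 30.0 and 26.0 CPM in HO, with the HE mean at 52.7% of WT. In the null line it was at 315 and 304 CPM in WT, 319 and 319 CPM in HE and 362 and 303 CPM in HO. In the 12-library fit the CD change was −0.92 ± 0.08 and the null change 0.04 ± 0.08. Their difference, from the 8-library fit, was −0.98 ± 0.07 (CD minus null; adjusted p = 0.000236). Its processed copy Gm8210 (chr1:43189156-43189638) was at 0.120 and 0.083 CPM in CD WT, 11.5 and 12.4 CPM in CD HE and 24.5 and 24.96 CPM in CD HO, and at no more than 0.270 CPM in the null line. Over a stretch of 483 bases, counted from its first base, Gm8210 differs from Rpl29 by C72A, C300T and T423C. Another copy, Gm13841, matches Gm8210 at 100% of these bases. It was at 5.66 and 4.75 CPM in CD WT and 9.27 and 7.12 CPM in CD HE. The copy Gm10709 went down, from 11.4 and 11.2 CPM in CD WT to 6.21 and 6.76 CPM in CD HE. Whether these genes share reads was not tested. Summed with its copies, Rpl29 still fell in CD HE, by 0.77 ± 0.08 on the log2 scale (adjusted p = 0.00523), and in null HE the sum changed by 0.05 ± 0.08.

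Genes close to Setd2 on its chromosome tend to be inherited together with the mutant allele. Of 237 genes tested within 10 Mb, 0 were called in the pooled comparison and 27 had an unadjusted p below 0.05 (background 6.08%). Of 263 tested in the 12-library fit, 0 were called in null HE and 1, Rpl29, in CD HE (12 without the first CD WT library), and 7 and 38 had an unadjusted p below 0.05 (background 2.41% and 8.81%). Lsmem2 was at 0.522 and 0.625 CPM in CD WT, 2.15 and 1.83 CPM in CD HE and 3.41 and 3.65 CPM in CD HO, while the null libraries were at 0.629 to 0.925 CPM. Ppm1m, a protein phosphatase gene, was at 26.4 and 25.5 CPM in CD WT, 20.6 and 20.4 CPM in CD HE and 13.4 and 14.6 CPM in CD HO, and at 26.2 and 27.3, 25.1 and 25.1, and 21.6 and 21.2 CPM in the null line. In both genes the CD HE libraries lay between CD WT and CD HO.

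A list from 1 line and the HE change of the other share no library. The lists were the genes called in HO of 1 line, 16.1% of the genes tested in CD and 32.7% in null. Over the 1330 genes higher in CD HO the median null HE change was 0.02, and over the 1757 lower genes it was −0.02, against 0.001 over all genes. In the first list 30 genes had an unadjusted p below 0.05 in the same direction and 31 in the opposite one, and in the second 59 and 16 (background 2.41% in either direction). With the Xist term the medians were −0.11 and 0.02, the opposite signs. Over the 3120 genes higher in null HO the median CD HE change was −0.10, and over the 3168 lower genes it was 0.07, both against the direction in HO, with 41 genes in the same and 473 in the opposite direction, and 55 and 307 (background 8.81% in either direction). Without the second CD WT library these medians were −0.02 and 0.01.

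In yolk sacs 2 of 16053 genes were called in HE against WT (0.0125%), and 0 in the CD line alone, by edgeR; 648 had an unadjusted p below 0.05 in the pooled fit, and DESeq2 called 8. The labels could not be relied on there. Setd2 in null yolk sacs was at 102 and 114 CPM in the libraries labelled WT and 114 and 120 CPM in those labelled HE. In the CD line, Rpl29 was at 149 CPM and Gm8210 at 9.49 CPM in the second library labelled WT, beside 116 and 154 CPM and 9.91 and 6.73 CPM in those labelled HE. No direction in yolk sacs is therefore drawn from the genotype labels. The called genes were Ighm and Igkc, the constant regions of an immunoglobulin heavy and a light chain. Ighm was at 24.3 and 34.97 CPM in the libraries labelled null WT, 2.35 and 4.93 CPM in null HE, 2.59 and 1.85 CPM in CD WT and 0.180 and 0.051 CPM in CD HE. Over the embryo homozygous list, the median yolk sac difference between libraries labelled HE and WT was −0.004 for the 796 higher and −0.01 for the 1243 lower genes tested. Tma7-ps was at 10.7 to 24.6 CPM in yolk sacs labelled WT and 18.49 to 21.5 CPM in those labelled HE, which overlap, with a difference of 0.05.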

How the data were processed

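RNA sequencing counts were taken from the authors' deposited embryo and yolk sac tables, which hold raw read counts per gene for 12 libraries each. Per the submitters' processing notes the tools were fastp 0.22.0, HISAT2 2.2.1, featureCounts 2.0.1 and DESeq2 1.32.0 with mm10; of the annotation release, the strand setting and reads with several matches they say nothing. The 24 columns of FPKM values beside the counts were not used. Of 55421 listed identifiers, 55154 were found in GENCODE M21, which gave positions and gene classes.

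Groups were taken from the labels. The HE comparison was fitted on 8 libraries with line as a covariate (5 residual degrees of freedom), and HO, midpoint and within-line contrasts on 12 libraries with a coefficient for each group (6). Both used edgeR 4.0.16 under R 4.3.3, with TMM scaling, filterByExpr (minimum count 10, minimum total 15) and its quasi-likelihood test; p-values were adjusted by Benjamini-Hochberg over all genes tested, with a threshold of 0.05. Standard errors were derived from the F statistic, and intervals are at 95%. The scripts were tested on simulated data. Alternatives were other scalings, no filter, DESeq2 1.42.0, a replicate block, a sex term (Xist above 100 CPM) and each library left out. Copies of Tma7 and Rpl29 were found with blastn 2.17.0.

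The members and lists were chosen with earlier results of these data known. Named genes are Setd2, genes called in HE, the 10 of smallest p, up to 8 genes each way of the homozygous list with the largest changes at 1 CPM or more, list members of smallest p or largest homozygous change, and genes near Setd2; the chromosome 12 group, Gm8210, Gm15610, Klf1, Hbb-bh1, Apoa1, Cdkn1a, the yolk sac genes and the members of the homozygous list named for their HE values were chosen after their values were seen. Replicates of a group differed by 2.77 to 15.7 chi-square per degree of freedom, above sampling noise, so none was a library deposited again.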

Additional observations from a re-analysis of the deposited data

Results flagged for a closer look

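The HE change of Rpl29 differed between the lines, −0.98 on the log2 scale (CD minus null), and this difference was tested (adjusted p = 0.000236 by edgeR's quasi-likelihood test). With the Xist term in the fit the number of genes whose change differed was 0.

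Of 100 groups of 4 libraries examined for a library far from the other 3, 7 had one, and chance gives about 1 in 20. The second CD WT library was high in the summed level of visceral endoderm markers, 2376 CPM against 921 to 1110 CPM in the other WT libraries. The first CD HE library was high in AC149090.1, at 7.96 CPM against 3.74 to 4.33 CPM, and low in the summed level of Zfp genes, at 14050 CPM against 14170 CPM. The first CD WT library was low in Tma7-ps, at 10.6 CPM against 11.6 to 11.8 CPM, and the second null WT library was high in Rbm5, a splicing factor gene, at 212 CPM against 198 CPM. The first null WT library was high in the summed level of Zfp genes, at 14540 CPM against 14300 to 14340 CPM, and the second CD HE library in that of p53 targets, at 1501 CPM against 1477 to 1480 CPM.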

How the results depend on the processing

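Of 308 recomputed counts and medians, 224 stayed within 1.5 times the count or within the spread between libraries, and 0 of 350 gene values changed sign with a call on either side. Where they did not, the cause was not tested. Genes called in HE numbered 411 without a filter, 10 by DESeq2, 2 with the Xist (sex) term, 4 over 12 libraries, 3 with 1 coefficient per group in 8 libraries, 4 at a threshold of 0.1, 0 with copies summed, and 1 to 10 with a library left out. Matching genes were 45 without a filter, 7 by DESeq2, 2 with the sex term and 1 to 7. Midpoint counts on the WT side were 644 with the sex term and 829 to 2077, and on the HO side 6 without a filter, 1 with the sex term and 1 to 3. HE against HO ranged from 6631 to 8717. The line difference gave 445 genes without a filter, 11 by DESeq2, 0 with the sex term and 1 to 1725. Within null HE there were 43 without a filter, 8 by DESeq2, 0 with the sex term and 0 to 5, and within CD HE 695 without a filter, 52 by DESeq2 and 2 to 849. Near Setd2, 10 genes were called without a filter in the pooled fit and 12 within CD, with 2 by DESeq2 and 1 to 12. Yolk sac calls were 201 without a filter, 8 by DESeq2, 0 in the CD line alone and 0 to 3.

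The median over the homozygous list was 0.094 (higher) and −0.051 (lower) for genes changed at least 2-fold in both lines, and ranged from −0.0067 to 0.049 and from −0.031 to −0.0016 with a library left out. For the other line's list, null HE medians were −0.11 and 0.021 with the sex term, −0.030 (lower) with library totals alone and −0.094 (lower) at 2-fold, ranging from 0 to 0.035 and from −0.034 to −0.019. CD HE medians were −0.22 and 0.30 at 2-fold, ranging from −0.16 to −0.025 and from 0.013 to 0.12.

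Replicate numbers were the same across groups but did not pair the samples: correlations of their deviations were −0.043 to 0.105. With a replicate block the HE count was 1, the line difference 2 and yolk sac calls 8. With 4 libraries a group and a median standard error of 0.09, changes of about that size could not be told from none. Much larger changes also went uncalled, such as those of Gm26788, Gm15610 and Klf1. A gene that was not called may therefore still have changed.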

Other observations

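Mitochondrial ribosomal RNA stood above WT in HE. mt-Rnr2, the large ribosomal RNA of mitochondria, was at 583, 478, 616 and 416 CPM in the WT libraries and at 763, 844, 697 and 728 CPM in the HE libraries, which do not overlap, with a change of 0.53 ± 0.10 (SE; adjusted p = 0.485 by edgeR's quasi-likelihood test). The HO libraries were at 483 to 580 CPM, within the WT range. It was called when either CD WT library was left out. Of the 15 mitochondrially encoded transcripts 4 were higher and 0 lower in HE at an unadjusted p below 0.05 (background 2.87% and 3.22%). In both HO groups 9 were lower (7.02% of all genes). The median HE change of the 15 was only 0.04, at 0.13 in the null and −0.04 in the CD line.

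Some genes lower in HO lay slightly below WT in every HE library, an order that 1.55% of all genes had. At an unadjusted p below 0.01, 48 genes of the homozygous list changed in HE in the HO direction and 8 in the opposite one. Syce2, a synaptonemal complex gene, was at 17.6 to 20.8 CPM in WT, 14.7 to 15.4 CPM in HE and 3.78 to 6.00 CPM in HO (HE change −0.34 ± 0.07; adjusted p = 0.520). Rec8, a meiotic cohesin gene, was at 5.25 to 6.06 CPM in WT, 3.83 to 4.86 CPM in HE and 2.26 to 2.76 CPM in HO. Hjurp, the chaperone that loads the centromeric histone, was at 442 to 471 CPM in WT, 410 to 436 CPM in HE and 207 to 226 CPM in HO, a change of −0.12 ± 0.04 (adjusted p = 0.809). Rbm5 was at 198 to 212 CPM in WT, 175 to 189 CPM in HE and 154 to 165 CPM in HO. None of these 4 was called. AU041133, a gene on chromosome 10, was at 4.58 to 6.08 CPM in WT, 2.86 to 3.59 CPM in HE and 0.503 to 0.655 CPM in HO, and was called without the second CD WT library.

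The metallothionein gene Mt1, which binds metal ions, was at 4.44, 4.45, 4.94 and 5.08 CPM in WT and 5.61, 5.77, 6.69 and 7.51 CPM in HE, which do not overlap, beside 11.2 to 27.0 CPM in HO. Its HE change was 0.43 ± 0.10 (adjusted p = 0.751).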
